A study of Mus musculus with 4 samples.

Results

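The bromodomain genes described here are 9 rows of a table of 24341 mouse genes, found by their symbols: Brd2 and Brd3, Brd1 and Brpf1, Brd7 and Brd9, Brd8, and Atad2 and Atad2b. A bromodomain is a protein fold with a pocket that binds acetylated lysine, most often on histone tails, so proteins that carry one can bring other activities to acetylated chromatin. The acetyl groups on histones come from acetyl-CoA, and ACSS2 is an enzyme that turns acetate into acetyl-CoA, also inside the nucleus. Neurons use bromodomain proteins in transcription that depends on activity and in the chromatin remodelling of differentiation.

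RNA was measured in CAD cells, a mouse catecholaminergic line that becomes neuron-like without serum. All cultures went without serum for 5 days. One pair of libraries came from cells given DMSO, the solvent, and the other from cells given 20 µM of an ACSS2 inhibitor, a urea built on a quinoxaline core and called ACSS2i below, each for 24 h. The labels name 2 replicates per group and not whether they were separate cultures, so the spread behind the p-values is that between these libraries and may be technical. The model is a single cell line, and RNA says nothing of the amount of protein or of its binding to chromatin.

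Values are FPKM, which scale the fragments of a gene to its length and to the size of the library, and comparisons were made on log2(FPKM + 1) with limma, with Benjamini-Hochberg adjustment over the 11486 genes whose mean reached 1 FPKM. All 9 bromodomain genes passed this minimum. From the steps between low values, the shallowest library was DMSO replicate 2, with a nominal 3410000 reads against 7900000 to 11700000 in the other 3. Of 9 neuronal and catecholaminergic markers, 8 had a mean of at least 1 FPKM, the exception being Dbh, which makes noradrenaline. In replicates 1 and 2 these markers summed to 908 and 920 FPKM with DMSO and to 532 and 1192 FPKM with ACSS2i. Ddc passed on its mean, though it was at 2.45 and 3.73 FPKM with DMSO against 0.067 and 3.17 with ACSS2i. Of 9 markers of astrocytes, microglia and fibroblasts 0 had a mean of at least 1 FPKM. These 9 together summed to 0.617 to 1.17 FPKM per library. Acss2 itself, whose protein the inhibitor targets, was at 11.7 and 10.0 FPKM with DMSO against 12.8 and 26.6 with ACSS2i (adjusted p = 0.785 by limma).

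Atad2 was the bromodomain gene that differed most between the groups. The other 8 had smaller differences with 95% intervals that included 0, which does not show that they were unchanged. With DMSO the mean of Atad2 was 5.60 ± 2.41 FPKM, and with ACSS2i 18.8 ± 3.21 FPKM (SD, n = 2 each), a ratio of means of 3.35. The log2 fold changes of the other 8 ran from -0.27 for Brd2 to 0.49 for Brd9. By limma 0 of the 9 passed an adjusted p of 0.05, where 0.0261% of all genes tested did. At an unadjusted p under 0.05 there was 1, Atad2, on the higher side and 0 on the lower side, where 3.29% and 3.67% of all genes stood. The median log2 fold change of the 9 genes was 0.15, and that of all genes tested was 0.020. Leaving out DMSO replicate 1 or 2 brought the former to 0.066 or 0.090, and leaving out ACSS2i replicate 1 or 2 to 0.092 or 0.21.

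**Figure D1:**
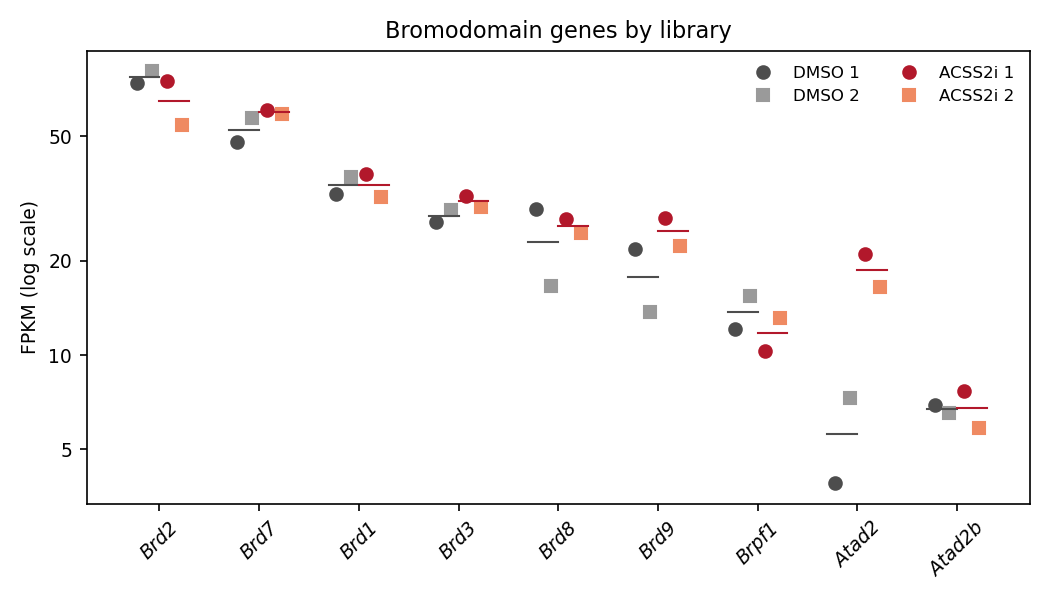
FPKM of the 9 bromodomain genes (log axis) in each of the 4 libraries, ordered by mean, with short lines at the group means. The 2 ACSS2i points of Atad2, at 21.0 and 16.5 FPKM, lie above its DMSO points at 3.89 and 7.30, while the points of each other gene span a ratio of 1.18 to 2.01.

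All 9 genes were expressed in every library, at levels from a few FPKM to the upper part of the transcriptome. Brd2 was highest, with a mean over the 4 libraries of 71.2 FPKM, above 89.9% of the genes tested. Brd7 followed at 56.3 FPKM, then Brd1 at 34.9, Brd3 at 29.5, Brd8 at 24.4, Brd9 at 21.3, Brpf1 at 12.8, Atad2 at 12.2 and Atad2b at 6.75, the last above 32.0% of the genes tested. In this order Brd7 and Brd1 did not overlap over the 4 libraries, the lowest value of Brd7 being 48.0 and the highest of Brd1 37.9 FPKM. All other neighbours in the order overlapped when values were pooled over the 4 libraries, so the pooled values do not separate their ranks. Within each library, however, Brd1 was above Brd3. Atad2 held different places: it ranked 9 and 8 of the 9 genes with DMSO and 7 in both ACSS2i libraries. The sum of the 9 genes was 255 and 264 FPKM with DMSO against 300.0 and 258 with ACSS2i. Atad2 made up 1.52% and 2.77% of that sum in DMSO and 7.01% and 6.40% in ACSS2i.

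Atad2 and Atad2b encode proteins that join a bromodomain to an AAA+ ATPase of the kind that remodels protein complexes. Atad2 is known as a gene of dividing cells that binds newly made, acetylated histones, and Atad2b is its closest relative. Atad2 lies on chromosome 15, from 58094044 to 58135082 on the minus strand (mm10, GENCODE M21), and Atad2b on chromosome 12, from 4917353 to 5047394 on the plus strand. Atad2 was at 3.89 and 7.30 FPKM in DMSO replicates 1 and 2 and at 21.0 and 16.5 FPKM in ACSS2i replicates 1 and 2. Both ACSS2i libraries were above both DMSO libraries, and the DMSO libraries themselves differed more (0.76 on the log2 scale) than the ACSS2i ones (-0.33, replicate 2 minus replicate 1). The log2 fold change was 1.62 ± 0.32 (SE), with a 95% interval of 0.83 to 2.42 (limma, unadjusted p = 0.00244, adjusted p = 0.429). An exact permutation test of 2 against 2 libraries gave p = 0.33, two-sided, the smallest it can give. Of all genes tested, 108, or 0.940%, had a log2 fold change at least as large.

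Fewer reads stood behind the DMSO values of Atad2. With the longest annotated Atad2 transcript, of 5684 bases, the values came to a nominal 259 and 141 reads with DMSO against 944 and 941 with ACSS2i. The log2 fold change was 1.24 without DMSO replicate 1 and 2.00 without DMSO replicate 2, so its size rested partly on which DMSO library was kept. The log2 fold change was 1.46 and 1.79 without ACSS2i replicate 1 and replicate 2.

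Atad2b, in contrast, was at 6.94 and 6.54 FPKM with DMSO against 7.66 and 5.86 with ACSS2i. The ACSS2i libraries bracketed the DMSO libraries. Its log2 fold change was -0.0059 ± 0.24 (SE), and the 95% interval ran from -0.61 to 0.59, which on the FPKM + 1 scale is 0.657-fold to 1.51-fold. The ratio of Atad2 to Atad2b within a library was 0.561 and 1.12 in DMSO and 2.75 and 2.82 in ACSS2i. These FPKM ratios did not overlap between the groups. Computed on FPKM + 1, the ratio differed by 1.63 on the log2 scale, ACSS2i minus DMSO. The exact permutation p was 0.33, or 0.667 adjusted over the 4 ratios of related genes that were compared.

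**Figure D2:**
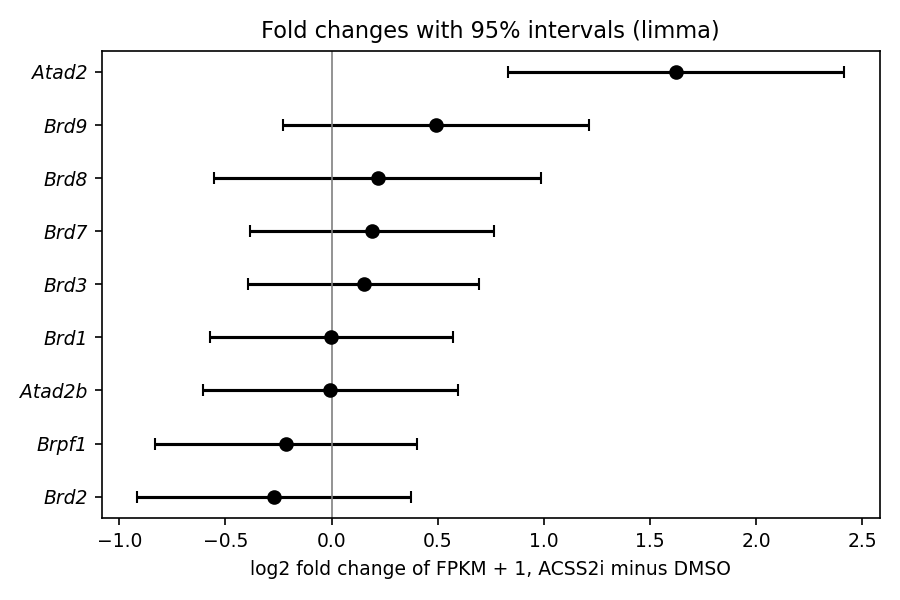
Log2 fold change of FPKM + 1 for each gene, ACSS2i minus DMSO, as points with 95% intervals from limma (bars, not adjusted for the number of genes). The interval of Atad2 runs from 0.83 to 2.42, and those of the other 8 genes include 0.

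Genes of cell division stood beside Atad2. A list of 10 (Mki67, Top2a, Ccna2, Ccnb1, Cdk1, Mcm5, Mcm10, Pcna, E2f1 and Rrm2) had higher values in both ACSS2i libraries than in both DMSO libraries for 9 members, with the cell cycle transcription factor E2f1 overlapping. The list was chosen with the difference in these genes already known, so it is no independent support. It summed to 56.5 and 74.2 FPKM in DMSO and to 152 and 286 FPKM in ACSS2i, with a median log2 fold change of 2.16. Over all genes 19.0% were separated on the higher side. By limma 0 of the 10 passed an adjusted p of 0.05, where 0.0261% of all genes did, and 9 were higher at an unadjusted p under 0.05, where 3.29% of all genes were.

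The order of libraries within a group was not the same for Atad2 and for most of these genes. Atad2 was higher in ACSS2i replicate 1 than in replicate 2, whereas 9 of the 10 division genes were higher in replicate 2. The exception was Mcm10, a replication initiation factor, at 10.8 and 7.46 FPKM in ACSS2i and 1.01 and 0.910 FPKM in DMSO. Ccnb1, the cyclin of mitotic entry, was at 6.07 and 28.2 FPKM in ACSS2i and 0.451 and 1.16 FPKM in DMSO. Top2a, which untangles chromosomes, was at 19.6 and 44.4 FPKM in ACSS2i and 1.71 and 4.02 FPKM in DMSO. Within DMSO, 8 of the 10 were higher in replicate 2, as Atad2 was. In bulk RNA a larger share of dividing cells and more RNA per cell cannot be told apart, and the part of cell division in the Atad2 difference was not tested.

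**Figure D3:**
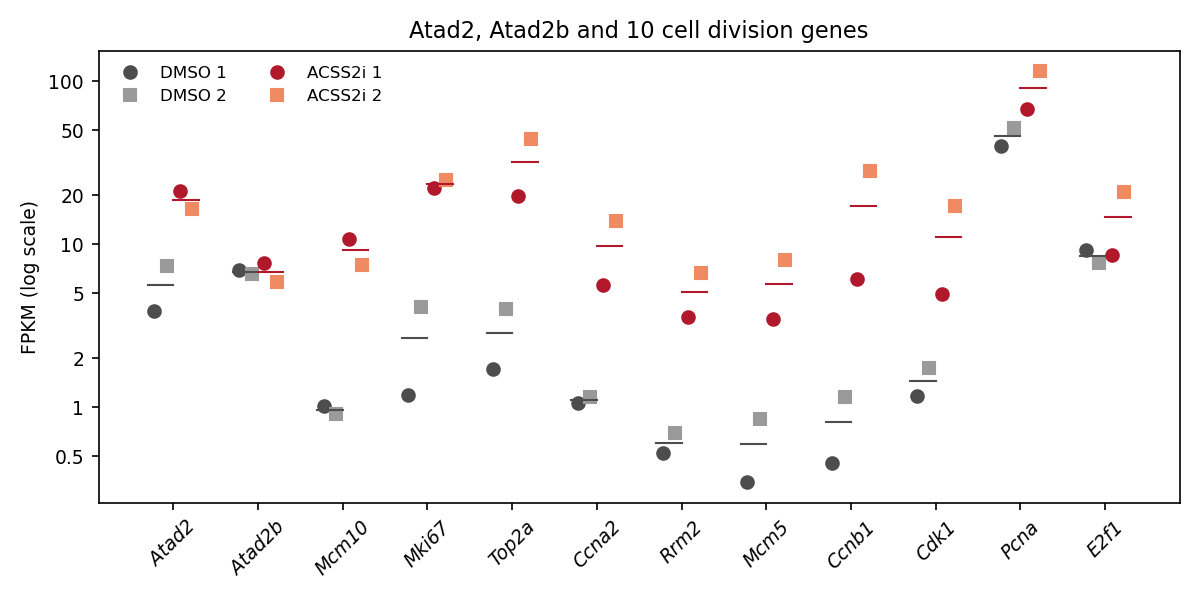
FPKM (log axis) of Atad2, Atad2b and the 10 cell division genes in each library, with short lines at the group means. Atad2 and 9 of the 10 division genes have both ACSS2i points above both DMSO points, and Atad2b does not.

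The genes most like Atad2 over the 4 libraries were sought among 8661 others with a mean of at least 5 FPKM, by the root mean square difference of centred log2 values. The nearest 5 were Hells, Cenpk, Tubb2b, Cdt1 and Prim2, at differences of 0.20, 0.20, 0.26, 0.26 and 0.27 log2 units. Hells, a chromatin remodelling helicase, was at 5.81 and 7.06 FPKM with DMSO against 21.5 and 19.1 with ACSS2i. Cenpk, a centromere protein, was at 4.41 and 7.82 FPKM with DMSO against 16.5 and 14.0 with ACSS2i. Both had, like Atad2, the higher DMSO value in replicate 2 and the higher ACSS2i value in replicate 1. Tubb2b encodes a neuronal tubulin, Cdt1 a licensing factor of replication origins and Prim2 a primase subunit, and their log2 fold changes were 1.15, 1.30 and 1.26. Over 4 libraries such likeness describes these profiles only.

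Brd2 and Brd3 are the BET proteins described here, a class with tandem bromodomains that binds acetylated histones at active genes and helps transcription proceed. Brd2, on chromosome 17 from 34112023 to 34122634 on the minus strand, was at 74.2 and 80.7 FPKM with DMSO against 75.3 and 54.5 with ACSS2i. ACSS2i replicate 2 was the lowest of the 4, and ACSS2i replicate 1 lay between the DMSO libraries. The log2 fold change was -0.27 ± 0.26 (SE; limma, adjusted p = 0.870), and it was -0.50 in ACSS2i replicate 2 and -0.040 in replicate 1 relative to the DMSO mean. Brd3, on chromosome 2 from 27445579 to 27507662 on the minus strand, was at 26.6 and 29.1 FPKM with DMSO against 32.4 and 29.7 with ACSS2i. Its groups did not overlap, though the nearest values differed little, and its log2 fold change was 0.15 ± 0.22 (SE).

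The ratio of Brd2 to Brd3 was nearly the same in the DMSO libraries, at 2.79 and 2.77, and lower in the ACSS2i libraries, at 2.32 and 1.83. These FPKM ratios did not overlap between the groups. Computed on FPKM + 1, the difference was -0.42 on the log2 scale, ACSS2i minus DMSO (exact permutation p = 0.33, the smallest possible, and 0.667 adjusted over 4 ratios). Brd2 and Brd3 together took 39.5% and 41.6% of the summed FPKM of the 9 genes in DMSO and 35.9% and 32.7% in ACSS2i. These shares are also lower where Atad2 is higher, since they are parts of 1 sum.

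**Figure D4:**
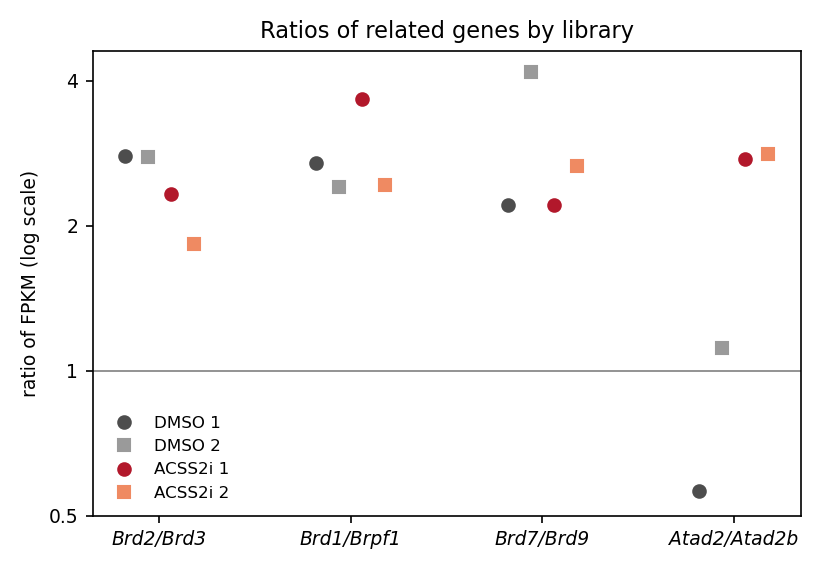
Ratio of FPKM between related genes within each library (log axis), with a line at a ratio of 1. Atad2/Atad2b is 0.561 and 1.12 in DMSO and 2.75 and 2.82 in ACSS2i, Brd2/Brd3 is lower in both ACSS2i libraries, and Brd1/Brpf1 and Brd7/Brd9 overlap between the groups.

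Brd1 and Brpf1 are scaffolds of the BRPF family, which hold MYST histone acetyltransferases such as Kat6a, Kat6b and Kat7 on chromatin. Brd1, on chromosome 15 from 88687034 to 88734233 on the minus strand, was at 32.6 and 37.1 FPKM with DMSO against 37.9 and 31.9 with ACSS2i. These values interleave, and the group means, 34.9 ± 3.18 and 34.9 ± 4.17 FPKM (SD, n = 2 each), differed by far less than the libraries of a group. The 95% interval of its log2 fold change was -0.57 to 0.57, so a change of up to 1.49-fold was within the error. Brpf1, on chromosome 6 from 113307137 to 113324860 on the plus strand, was at 12.1 and 15.4 FPKM with DMSO against 10.3 and 13.2 with ACSS2i (log2 fold change -0.21 ± 0.25, SE). The ratio of Brd1 to Brpf1 overlapped between the groups, from 2.40 to 3.67.

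Brd7 and Brd9 are subunits of different SWI/SNF remodelling complexes, Brd7 of PBAF and Brd9 of the non-canonical BAF complex. Brd7, on chromosome 8 from 88331039 to 88362194 on the minus strand, was at 48.0 and 57.2 FPKM with DMSO against 60.7 and 59.2 with ACSS2i. The groups did not overlap, and the log2 fold change, 0.19 ± 0.23 (SE), was smaller than the difference between the DMSO libraries (0.25). Brd9, on chromosome 13 from 73937811 to 73960895 on the plus strand, was at 21.8 and 13.7 FPKM with DMSO against 27.5 and 22.3 with ACSS2i. Its log2 fold change of 0.49 ± 0.29 (SE; limma, unadjusted p = 0.145, adjusted p = 0.804) was second to that of Atad2 among the 9. DMSO replicate 2, the shallowest library, was low for Brd9, and without it the log2 fold change was 0.18, against 0.81 without DMSO replicate 1. The ratio of Brd7 to Brd9 was 2.21 and 4.17 in DMSO and 2.21 and 2.66 in ACSS2i.

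Brd8 is a subunit of the TIP60 (NuA4) acetyltransferase complex, which acetylates histone H4 and the variant H2A.Z. Brd8, on chromosome 18 from 34598615 to 34624601 on the minus strand, was at 29.3 and 16.7 FPKM with DMSO against 27.3 and 24.5 with ACSS2i. The ACSS2i values lay between the DMSO values. The log2 fold change was 0.22 ± 0.31 (SE), and without DMSO replicate 2 it was -0.17, so that library set its sign. Of the 9 genes, Brd8 and Brd9 had their lowest value in DMSO replicate 2, at a nominal 254 and 213 reads there against 1529 and 1163 in DMSO replicate 1.

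In all, 4 of the 9 genes had both ACSS2i values above both DMSO values, Atad2, Brd3, Brd7 and Brd9, and 0 had both below. Over all genes tested these shares were 19.0% and 18.3%. After quantile normalization 1 of the 9, Atad2, was separated, and after median-of-ratios scaling the 4 were Atad2, Brd3, Brd7 and Brd9. The shares over all genes after these scalings are not given here. The 8 genes other than Atad2 all had log2 fold changes within 2 standard errors of 0, and 6 of the 8 within 1 standard error. Their 95% intervals together spanned 0.530-fold, the lower end for Brd2, to 2.32-fold, the upper end for Brd9, on the FPKM + 1 scale. With 2 libraries per group, a change within the interval of a gene was not excluded for that gene.

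Among the rest of the family, lower values with ACSS2i outnumbered higher ones. A list of 31 other bromodomain genes had 27 with a mean of at least 1 FPKM. Brdt, Cecr2, Sp100 and Sp110 fell below it, with no value above 0.626 FPKM. Of the 27, 11 (40.7%) had both ACSS2i values below both DMSO values and 4 (14.8%) had both above, beside the 18.3% and 19.0% of all genes. The median log2 fold change was -0.15, with -0.12 in ACSS2i replicate 1 and -0.20 in replicate 2 relative to the DMSO mean. By limma 0 of the 27 passed an adjusted p of 0.05, where 0.0261% of all genes did. At an unadjusted p under 0.05, where 3.29% of all genes were higher and 3.67% lower, 0 of the 27 were higher and 2 were lower.

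These were Kmt2a and Brwd1. Kmt2a, the MLL1 methyltransferase that marks active promoters, was at 37.8 and 31.5 FPKM with DMSO against 16.0 and 20.0 with ACSS2i (log2 fold change -0.91 ± 0.24, SE; limma, unadjusted p = 0.00993, adjusted p = 0.511). Brwd1, a WD-repeat protein with a pair of bromodomains, was at 28.1 and 24.8 FPKM with DMSO against 17.3 and 17.6 with ACSS2i (-0.57 ± 0.22, SE). Its relative Phip was at 24.5 and 23.9 FPKM with DMSO against 15.5 and 18.1 with ACSS2i. For each of these 3 genes both ACSS2i values were below both DMSO values, in the direction opposite to Atad2. Ash1l, a histone H3 lysine 36 methyltransferase, had a log2 fold change of -0.46, Baz2b of -0.49, Trim66 of -0.57 and Baz2a, a subunit of the nucleolar remodelling complex, of -0.36. Trim28, the corepressor KAP1, was the only one of the 8 named by the smallest p that was higher, at 43.9 and 46.2 FPKM with DMSO against 52.9 and 60.5 with ACSS2i (0.32 ± 0.23, SE).

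Transcript length moved with these differences. Over the 36 bromodomain genes tested, the 9 and the 27 together, Pearson's r between the log2 of the longest annotated transcript and the log2 fold change was -0.48. This is a description across genes that share the same 4 libraries, and over 11061 genes tested with an annotated length it was -0.089. The 11 genes with lower ACSS2i values had a median longest transcript of 9566 bases, the 8 with higher values 5036 bases and the 17 that overlapped 5957 bases. The Kmt2a transcript, of 16470 bases, was the longest of them. Of the 9 genes this text is about, Atad2b has the longest transcript, at 8035 bases, and the others lie between 3625 and 5684 bases. The part of length, or of RNA integrity or coverage along transcripts, in the differences was not tested.

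**Figure D5:**
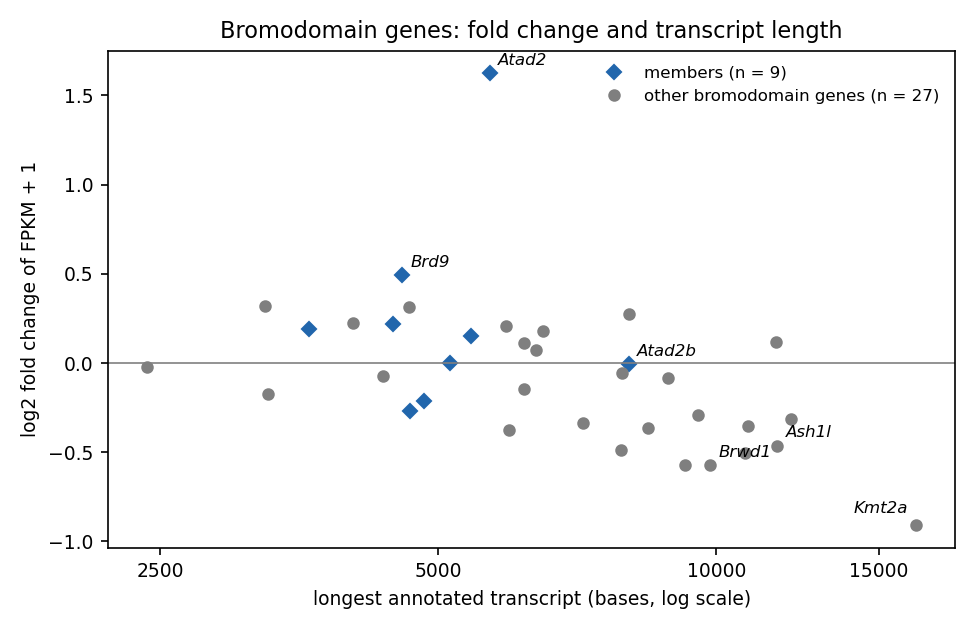
Log2 fold change of FPKM + 1, ACSS2i minus DMSO, against the longest transcript in GENCODE M21 (log axis) for the 9 bromodomain genes (blue diamonds) and 27 other bromodomain genes (grey circles). Kmt2a, at 16470 bases, is the lowest point at -0.91, and Atad2, at 5684 bases, is the highest at 1.62.

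Partner subunits of the same complexes were read from a list of 40 symbols, of which 37 were in the table and all 37 were tested. The remaining symbols, Nsd3, Bicra and Bicral, are later names of Whsc1l1, Gltscr1 and Gltscr1l, which were in the table. Of the 37 tested, 8 (21.6%) had higher and 9 (24.3%) lower values in both ACSS2i libraries, near the 19.0% and 18.3% of all genes tested. The other 20 overlapped, and the median log2 fold change was 0.048. By limma 0 passed an adjusted p of 0.05, where 0.0261% of all genes did. At an unadjusted p under 0.05, where 3.29% of all genes were higher and 3.67% lower, 0 were lower and 1 was higher, Jmjd6. Jmjd6, a hydroxylase that binds BET proteins, was at 39.7 and 38.9 FPKM with DMSO against 52.6 and 91.1 with ACSS2i (log2 fold change 0.80 ± 0.32, SE; limma, adjusted p = 0.708). Of the 6 BET partners tested, 4 had both ACSS2i values below both DMSO values, 1 (Jmjd6) had both above, and Whsc1l1 overlapped, with a log2 fold change of 0.029. The 4 were the elongation kinase Cdk9, its cyclins Ccnt1 and Ccnt2 and its inhibitor Hexim1, with log2 fold changes of -0.32, -0.40, -0.23 and -0.36. Cdk9, Ccnt1, Ccnt2 and Whsc1l1 were picked out after their values were seen.

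Among 15 TIP60 partners of Brd8, 5 (33.3%) had higher and 1 (6.67%) lower values in both ACSS2i libraries, beside 19.0% and 18.3% of all genes. The paired helicases Ruvbl1 and Ruvbl2 had log2 fold changes of 0.51 and 0.49, Actl6a of 0.53 and Dmap1 of 0.48. Ruvbl1 was at 38.5 and 53.1 FPKM with DMSO against 56.0 and 74.7 with ACSS2i, so that the nearest values of the groups were close. Of 10 SWI/SNF partners of Brd7 and Brd9, 1 had higher and 4 lower values in both, beside the same shares of all genes. Smarcc2, a core subunit, was at 54.8 and 46.1 FPKM with DMSO against 31.7 and 41.3 with ACSS2i (-0.46 ± 0.25, SE), and Arid2, the PBAF subunit, had a log2 fold change of -0.36. Of 6 acetyltransferase partners of Brd1 and Brpf1, 5 overlapped between the groups, and the list's log2 fold changes lay between -0.22 and 0.21.

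Proteins that read acetylated lysine through other folds had log2 fold changes between -0.14 and 0.32. The list held the YEATS proteins Yeats2, Mllt1 and Mllt3 and the double PHD finger proteins Dpf1, Dpf2 and Dpf3, and all 6 were tested. By limma 0 of the 6 passed an adjusted p of 0.05, where 0.0261% of all genes did. At an unadjusted p under 0.05, where 3.29% of all genes were higher and 3.67% lower, there were 0 of the 6. Mllt3, a subunit of the super elongation complex, was at 6.54 and 6.49 FPKM with DMSO against 8.39 and 8.36 with ACSS2i (log2 fold change 0.32 ± 0.22, SE). Yeats2, a subunit of the ATAC acetyltransferase complex, was at 19.7 and 18.6 FPKM with DMSO against 17.7 and 16.9 with ACSS2i. Mllt3 was thus separated on the higher side and Yeats2 on the lower side, where 19.0% and 18.3% of all genes tested were. The other 4 overlapped between the groups, with log2 fold changes of -0.057 for Mllt1, 0.032 for Dpf1, 0.046 for Dpf2 and -0.094 for Dpf3.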

How the data were processed

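The build was mm10, and the tools were Cuffdiff, Cufflinks 2.2.1, STAR 2.3.0 and bcl2fastq 02.14.01.07, per the submitters' processing notes. Libraries were made from polyadenylated RNA, per the labels' protocols. The deposited table holds 1 value per gene and library with no unit in its header. The values were taken as FPKM made by the authors with Cufflinks, since the submitters' processing notes name it and the values fit that unit. How the authors adjusted the values is not given in the sources used here. At the low end, the lowest deposited value is 0.01, a floor. Of 24341 rows, 1 had a failure mark and was left out.

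Groups were compared with limma 3.58.1 (R 4.3.3; mean-variance trend, two-sided) on log2(FPKM + 1), which understates the change of low genes, for 11486 genes whose mean reached 1 FPKM. The test was checked on 20 simulated runs with normal noise at the spread of each gene and 200 changed genes per run. It called 0% of the genes changed by 1 log2 unit and 50.05% of those changed by 3. Unchanged genes called came to 0.85 per run. Each spread was estimated from 2 libraries per group and taken as the true one, so these rates hold for the simulation only. A gene that was not called may still have changed. Genes count as called at an adjusted p under 0.05. Exact permutation tests and depths were computed in Python 3.11.15. Relative depths are the most common ratios between values of at most 0.5 FPKM (1, 0.291, 0.675 and 0.858, in the order DMSO 1, DMSO 2, ACSS2i 1, ACSS2i 2). Nominal reads add transcript lengths of single-transcript genes (GENCODE M21) and could be wrong by a whole factor. Counts were not recovered, so no count test was run.

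Replicate numbers do not pair the libraries as far as the labels say, and the main comparison has no block. The members and gene lists were chosen with earlier results of these data known. Named are all 9 genes, the 8 other bromodomain genes and 8 partners with the smallest unadjusted p, the other acetyl-lysine readers, the cell division genes, Acss2 and the 5 genes most like Atad2. The 12 alternatives were another pseudocount (0.1 or 5), filter (none or a mean of at least 5), scaling (quantile or median of ratios), a replicate block, no trend, and leaving out each library. A further list of markers, of another glial type, is not reported here.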

Additional observations from a re-analysis of the deposited data

How the results depend on the processing

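Of the 9 genes, 0 passed an adjusted p of 0.05 under any of the 12 alternatives, and the direction of Atad2, Brd2, Brd3, Brd7, Brd9 and Brpf1 was kept in all 12. The log2 fold change of Atad2 ran from 1.18 with a pseudocount of 5 to 2.00 without DMSO replicate 2 (limma, adjusted p from 0.259 to 1). The filters, the replicate block and the fit without the trend leave a log2 fold change as it is by construction. Only the other alternatives could therefore change a direction. The signs of 3 genes changed. Atad2b was at 0.027 after quantile normalization, 0.031 without DMSO replicate 1 and 0.16 without ACSS2i replicate 2. Brd1 was at 0.090 without DMSO replicate 2 and 0.12 without ACSS2i replicate 2, and Brd8 ran from -0.17 to 0.61 with 1 library left out. Genes with no overlap between groups numbered 1 of the 9 after quantile normalization and 5 to 7 with 1 library left out, where a lone library overlaps less often by construction. The shares of all genes without overlap are not given for these alternatives, so these counts have no background beside them. The median of the 9 ran from 0.066 to 0.21 with 1 library left out.

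The median of the other bromodomain genes was -0.070 without a filter, and ran from -0.20 to -0.12 with 1 library left out. The median of the partners ran from -0.032 to 0.13 with 1 library left out. All genes called numbered 3, against 6 with a pseudocount of 0.1, 0 with a pseudocount of 5 and 0 without a filter (by limma, with 795 and 1342 at an unadjusted p under 0.05), and 13 to 26 with 1 library left out, where the lone library is assumed to vary like the other group. With the replicate number as a block 8 genes were called, 0 of them among the 9. The log2 fold change of Atad2 stayed at 1.62, which a block leaves as it is by construction (limma, adjusted p = 0.356). Deviations of same-numbered libraries correlated at -0.017, and 2 pairs cannot show whether the numbers pair the libraries. Except as given, the cause of these differences was not tested. The fewest nominal reads among the 9 genes were those of Atad2, Atad2b and Brd9 in DMSO replicate 2, at 141, 179 and 213. The part of depth in their spread was not tested.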
